A study of Mus musculus with 2 samples.

Results

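The mitochondrial genome encodes 7 core subunits of complex I (NADH:ubiquinone oxidoreductase) and 3 of complex IV (cytochrome c oxidase), and these 10 genes were followed here in 2 RNA-seq libraries made from primary microglia, macrophages that live in the brain and spinal cord. They were taken by symbol (Mt-nd1, Mt-nd2, Mt-nd3, Mt-nd4, Mt-nd4l, Mt-nd5, Mt-nd6, Mt-co1, Mt-co2 and Mt-co3), and all 10 were found among the 26607 rows of the deposited table. One library was labelled with a Per2-overexpression vector and the other with a control vector, with no dose, time, animal or strain given. Per2 encodes a repressor of the circadian clock. Each group held 1 library, so values have no replicates, differences between the labels could not be tested and every one describes these 2 libraries only. Mouse is the labelled organism, but the gene identifiers and the build in the submitters' processing notes (Rnor_6.0) are those of rat.

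Complex I takes electrons from NADH to ubiquinone and complex IV passes them from cytochrome c to oxygen, and both pump protons across the inner mitochondrial membrane. Mitochondrial DNA is read from both strands as long precursor RNAs that are cut into mRNAs, tRNAs and rRNAs, so neighbouring mRNAs on a strand start out in equal numbers and differ afterwards by processing and decay. Each complex is finished with subunits that are encoded in the nucleus. In microglia, as in other macrophages, the balance between oxidative phosphorylation and glycolysis is known to shift with activation. Most mitochondrial mRNAs carry short poly(A) tails, and both libraries were made from RNA bound to oligo(dT) beads.

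The sets of bases shown next are the places where the reading frames of the members meet, because reads there can count for either gene. They are the mouse sequences of GENCODE M21 (GRCm38), 5′ to 3′, and stand in for the rat sequences to which the authors aligned. In mouse, mt-Nd4l (chrM:9877-10173, + strand) and mt-Nd4 (chrM:10167-11544, + strand) overlap by 7 bases on the same strand and are carried by 1 mRNA. The capitals mark that overlap, in which the end of mt-Nd4l is also the start of mt-Nd4.
mt-Nd4l: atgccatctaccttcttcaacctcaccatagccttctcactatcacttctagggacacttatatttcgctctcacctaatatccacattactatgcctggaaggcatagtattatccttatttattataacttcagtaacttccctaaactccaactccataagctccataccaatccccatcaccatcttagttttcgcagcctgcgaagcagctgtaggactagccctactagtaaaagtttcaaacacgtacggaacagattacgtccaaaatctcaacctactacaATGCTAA
mt-Nd4 start: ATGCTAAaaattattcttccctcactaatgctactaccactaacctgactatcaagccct

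The genes mt-Nd5 (chrM:11742-13565, + strand) and mt-Nd6 (chrM:13552-14070, - strand) overlap by 14 bases at their 3′ ends on opposite strands, and mt-Nd6 is the only mRNA-coding gene on its strand. The capitals mark the overlap in the last 40 bases of each gene.
mt-Nd5 end: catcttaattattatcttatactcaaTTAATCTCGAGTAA
mt-Nd6 end: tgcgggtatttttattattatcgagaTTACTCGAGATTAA
Marking of the strand is not part of the library protocol in the labels, so RNA from the 2 strands of this region cannot be told apart in the values of Mt-nd5 and Mt-nd6. Copies of mitochondrial DNA also lie in the nuclear genomes of rodents, and how reads that match both were treated is not given in the sources used here, so the level of every member is uncertain to that extent.

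Values are FPKM, fragments per kilobase of transcript and per 1000000 mapped fragments, which set genes of different length on a common scale. The log2 ratio of a gene is log2 of (FPKM + 1) in the library labelled Per2-overexpression vector over (FPKM + 1) in the library labelled control vector. With 1 library per group a 2-fold rule stood in for a test: a gene was called where its log2 ratio reached 1 in size. It was applied to the 12369 rows whose 2 values averaged 1 FPKM or more, and all 10 members passed that filter.

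Per2 itself went against the labels. It had 0.927 FPKM in the library labelled Per2-overexpression vector and 6.90 FPKM in the library labelled control vector (log2 ratio -2.04). The groups are therefore named by their labels below, and no direction refers to a measured gain of Per2 transcript. Whether the columns of the table were exchanged before deposit was not tested, and if they were, every log2 ratio given here would change sign. Summed FPKM was 760286 and 659696 in the same order. Depth cannot be read from FPKM and is unknown, so no counting interval is given. Of the 16 measured microglia markers 6 were at least 2-fold lower under the Per2 label, as described with the other cell type markers at the end. Tyrobp was the most abundant of them in both libraries. Of the homeostatic markers, named for their low values after these were seen, P2ry12 had 0.0802 FPKM under the Per2 label and 0.650 FPKM under the control label, and Cx3cr1 was listed at 0 in both.

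The members were among the most abundant transcripts of both cultures, and as a group they made up nearly the same part of each. The 10 genes summed to 49175 FPKM in the library labelled Per2-overexpression vector and to 44076 FPKM in the library labelled control vector, which is 6.47% and 6.68% of all FPKM. The sum was thus higher under the Per2 label in FPKM (log2 ratio 0.16) and lower as a share (log2 ratio of shares -0.047). It has no direction that is free of the scaling. The 3 complex IV genes held 5.06% against 5.15% of all FPKM, and the 7 complex I genes held 1.41% against 1.53%. In bulk RNA, fewer cells of a type and less RNA per cell cannot be told apart in such values. Leaving out Mt-co1, the most abundant member, turned the comparison round, to 3.82% under the Per2 label and 3.72% under the control label. Mt-co1, Mt-co2 and Mt-co3 were the members among the 10 highest rows of each library.

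**Figure D1:**
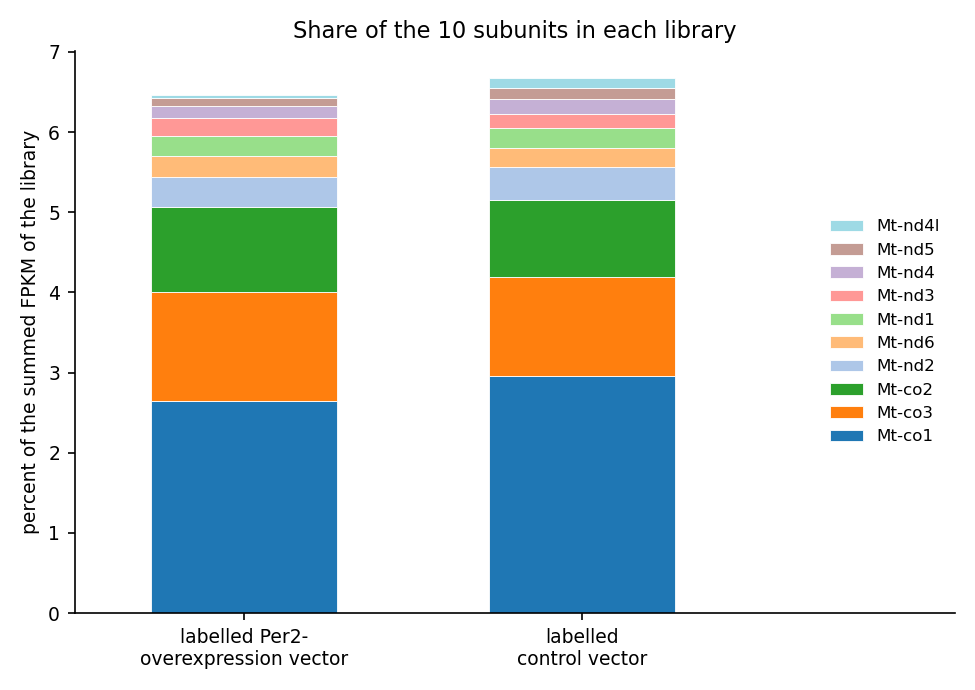
Stacked bars give each of the 10 subunits as a percent of the summed FPKM of its library, with 1 library per bar and no error. The bars reach 6.47% in the library labelled Per2-overexpression vector and 6.68% in the library labelled control vector, with Mt-co1 the largest piece of both.

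The complex IV subunits were the 3 highest members in both libraries. Mt-co1, which binds the haem and copper centre where oxygen is reduced, had 20105 FPKM in the library labelled Per2-overexpression vector and 19553 FPKM in the library labelled control vector. Mt-co3, a core subunit without a redox centre, had 10389 FPKM under the Per2 label and 8115 FPKM under the control label. Mt-co2, which takes electrons from cytochrome c at its copper site, had 7979 FPKM under the Per2 label and 6305 FPKM under the control label. All 3 were higher under the Per2 label, with log2 ratios of 0.040 for Mt-co1, 0.36 for Mt-co3 and 0.34 for Mt-co2, and none was past 2-fold. After rescaling both libraries to TPM (an equal sum of 1000000), Mt-co1 was below 0 at -0.16, while Mt-co3 (0.15) and Mt-co2 (0.13) stayed above. Mt-co1 was thus 2.52 times the level of Mt-co2 under the Per2 label and 3.10 times under the control label, whereas Mt-co2 stood at 0.768 and 0.777 of Mt-co3, nearly the same.

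The complex I subunits were lower and spread more widely. Mt-nd2, one of the membrane subunits that resemble antiporters and pump protons, had 2854 FPKM under the Per2 label and 2764 FPKM under the control label. Mt-nd1, which helps to form the ubiquinone-binding site, had 1899.5 FPKM under the Per2 label and 1718 FPKM under the control label. Both lay close to 0 (log2 ratios 0.046 for Mt-nd2 and 0.15 for Mt-nd1) and were below 0 when rescaled to TPM (-0.16 and -0.060). Mt-nd6, a small subunit of the membrane arm, had 2026 FPKM under the Per2 label and 1509 FPKM under the control label (log2 ratio 0.42). In mammals the ND6 mRNA is known to have little or no poly(A) tail. Mt-nd6 stood above its overlapping neighbour Mt-nd5 in both of these oligo(dT)-selected libraries. It was 2.66 times as high under the Per2 label and 1.69 times under the control label. Strands cannot be told apart here, so the value of Mt-nd6 may hold RNA of the opposite strand.

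Mt-nd3, a short subunit at the joint of the membrane and matrix arms, had 1737 FPKM under the Per2 label and 1076 FPKM under the control label. Its log2 ratio of 0.69 was the highest of the 10 and stayed above 0 in TPM (0.49). The next genes along the mitochondrial genome lay on the other side of 0. Mt-nd4l, a short membrane-arm subunit, had 313 FPKM under the Per2 label and 837 FPKM under the control label, 2.67 times as much in the control-labelled library. Mt-nd4, a proton-pumping subunit read from the same mRNA, had 1112 FPKM under the Per2 label and 1308 FPKM under the control label. Mt-nd5, the longest member and also proton-pumping, had 761 FPKM under the Per2 label and 892 FPKM under the control label. The log2 ratios were -1.42 for Mt-nd4l, -0.23 for Mt-nd4 and -0.23 for Mt-nd5, and these 3 neighbours were the members below 0.

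**Figure D2:**
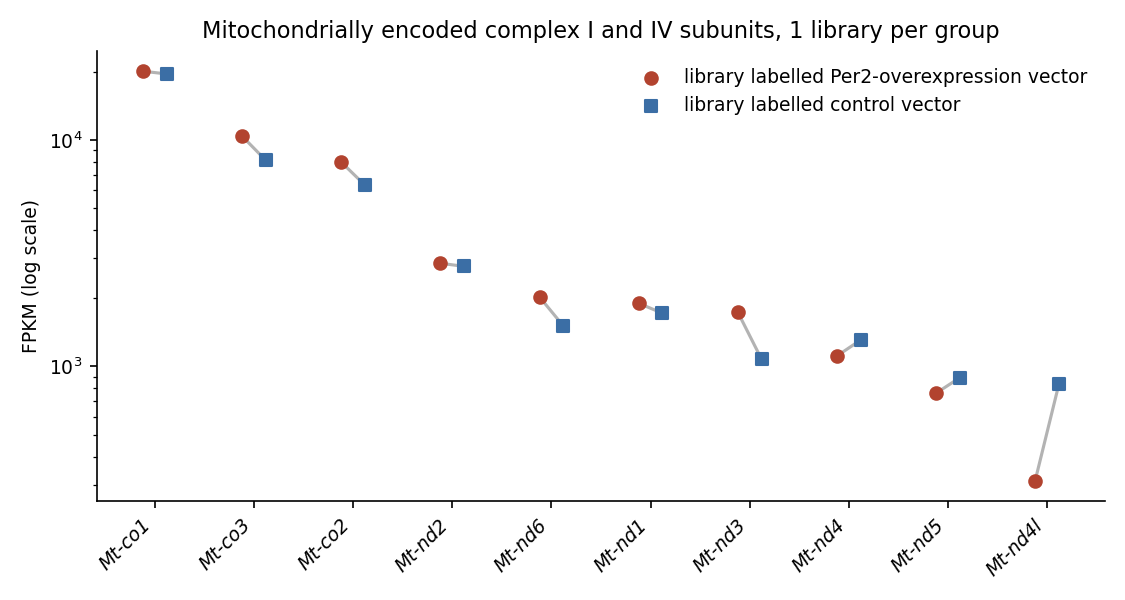
FPKM of each member on a log axis, with a circle for the library labelled Per2-overexpression vector and a square for the library labelled control vector, joined by a line and ordered by the Per2-labelled level. Values run from 20105 and 19553 FPKM for Mt-co1 down to 313 and 837 FPKM for Mt-nd4l, the member with the widest gap.

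The order of the levels was nearly shared. Mt-co1, Mt-co3, Mt-co2 and Mt-nd2 led in both libraries and Mt-nd5 and Mt-nd4l closed both. In between, the order was Mt-nd6, Mt-nd1, Mt-nd3 and Mt-nd4 under the Per2 label, and Mt-nd1, Mt-nd6, Mt-nd4 and Mt-nd3 under the control label. With no replicates, it cannot be said which neighbours in that order differ beyond their spread. The highest member exceeded the lowest 64.2-fold under the Per2 label and 23.4-fold under the control label. Among the complex I genes that range was 9.12-fold against 3.30-fold, and without Mt-nd4l it was 3.75-fold against 3.10-fold. Summed complex IV was 3.59 times summed complex I under the Per2 label and 3.36 times under the control label. That difference was small (log2 ratio 0.096) and does not depend on the scaling of the libraries. Without Mt-co1, the most abundant member, the values were 1.72 and 1.43 in the same order, a wider difference (log2 ratio 0.27).

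Under the 2-fold rule 1 of the 10 members, Mt-nd4l, was lower and 0 were higher, and the other 9 lay within 2-fold. Over all compared rows 5.93% were lower and 2.19% higher by that rule, so 1 member in 10 is close to what the whole table shows. After TPM rescaling the counts of members were the same, beside 11.3% of rows lower and 1.53% higher. The median log2 ratio of the members was 0.096, with 7 above 0 and 3 below. The median of all compared rows was -0.18, with 35.9% above 0. TPM rescaling moved the members' median to -0.11, with 4 above 0 and 6 below, and the median of all rows to -0.37. Relative to the median row of the table, the members' median was 0.28. Highly expressed rows as a whole lay higher than the members. Over the 219 rows that averaged 500 FPKM or more, which include all 10, the median was 0.45 and 167 were above 0.

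**Figure D3:**
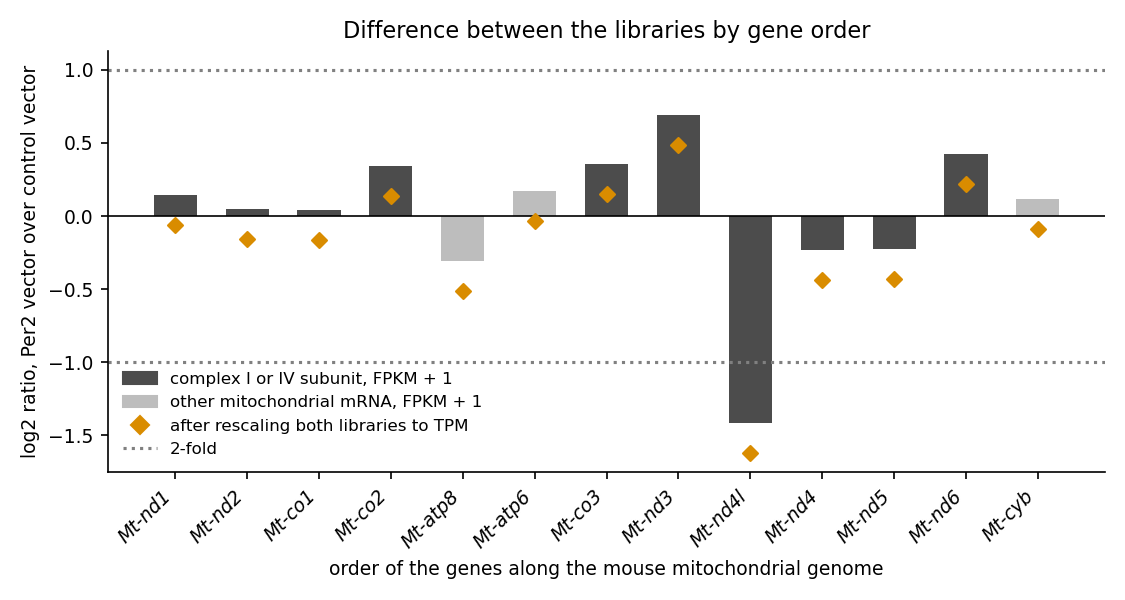
Bars give the log2 ratio (Per2-labelled over control-labelled library, FPKM + 1) of the 13 mitochondrially encoded mRNAs in the order of the mouse mitochondrial genome, dark for complex I and IV subunits and light for the others, and diamonds give the ratio after TPM rescaling. The bar of Mt-nd4l at -1.42 passes the 2-fold line, between Mt-nd3 at 0.69 and Mt-nd4 at -0.23.

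The 3 mitochondrially encoded mRNAs outside these complexes also differed little. Mt-cyb, which encodes cytochrome b of complex III, had 5023 FPKM under the Per2 label and 4636 FPKM under the control label. Mt-atp6, the proton channel subunit of ATP synthase, had 6635 FPKM under the Per2 label and 5887 FPKM under the control label. Mt-atp8, a short subunit of the same enzyme, had 2689 FPKM under the Per2 label and 3334 FPKM under the control label. Their log2 ratios were 0.12 for Mt-cyb, 0.17 for Mt-atp6 and -0.31 for Mt-atp8, and the first 2 were below 0 in TPM (-0.089 and -0.032). With these 3 included, mitochondrially encoded mRNAs made up 8.36% of all FPKM under the Per2 label and 8.78% under the control label. No row was found under a symbol for a mitochondrial rRNA or tRNA.

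Mt-nd4l and Mt-atp8 have a feature in common. Each is the shorter, upstream reading frame of an mRNA that carries a pair of overlapping frames. In mouse, mt-Atp8 and mt-Atp6 overlap by 43 bases. Mt-nd4l stood at 0.282 of the level of Mt-nd4 under the Per2 label and at 0.639 under the control label. Mt-atp8 stood at 0.405 of Mt-atp6 under the Per2 label and at 0.566 under the control label. In both pairs the upstream frame was lower against its partner in the Per2-labelled library, by a log2 ratio of -1.18 for Mt-nd4l and -0.48 for Mt-atp8, and these ratios within a library do not depend on its scaling. When the frames of a pair were joined to 1 unit, weighted by the mouse lengths, Mt-nd4l with Mt-nd4 had 974 FPKM under the Per2 label and 1230 FPKM under the control label, a log2 ratio of -0.34. Mt-atp8 with Mt-atp6 had 6018 and 5569 FPKM in the same order, a log2 ratio of 0.11. The shorter frame made up little of its unit by weight, 5.72% and 12.1% for Mt-nd4l and 10.8% and 14.5% for Mt-atp8 in that order. The joined values therefore follow the longer partner and cannot decide whether the shorter frame differed. How the authors' quantification divided fragments between overlapping frames, and its part in the value of Mt-nd4l, was not tested.

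Transcript length moved with the ratios of the members, as it did across the table. Lengths of rat transcripts were not at hand, and the longest protein-coding mouse transcript of the same symbol stood in for them. The mouse genes of the members run from 297 nt for mt-Nd4l and 348 nt for mt-Nd3 to 1545 nt for mt-Co1 and 1824 nt for mt-Nd5. Over the 9 members without Mt-nd4l, which was left out after its value was seen, shorter genes had higher ratios (Spearman's rho -0.93, as a description). These 9 points share 2 libraries, a genome and their precursor RNAs. Over all 10 members rho was -0.41, and over the 10152 compared rows with a length it was -0.50. The shortest 1016 of those rows (204 to 1270 nt) had a median log2 ratio of 0.43, and the longest 1016 (6239 to 23495 nt) had -0.47.

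**Figure D4:**
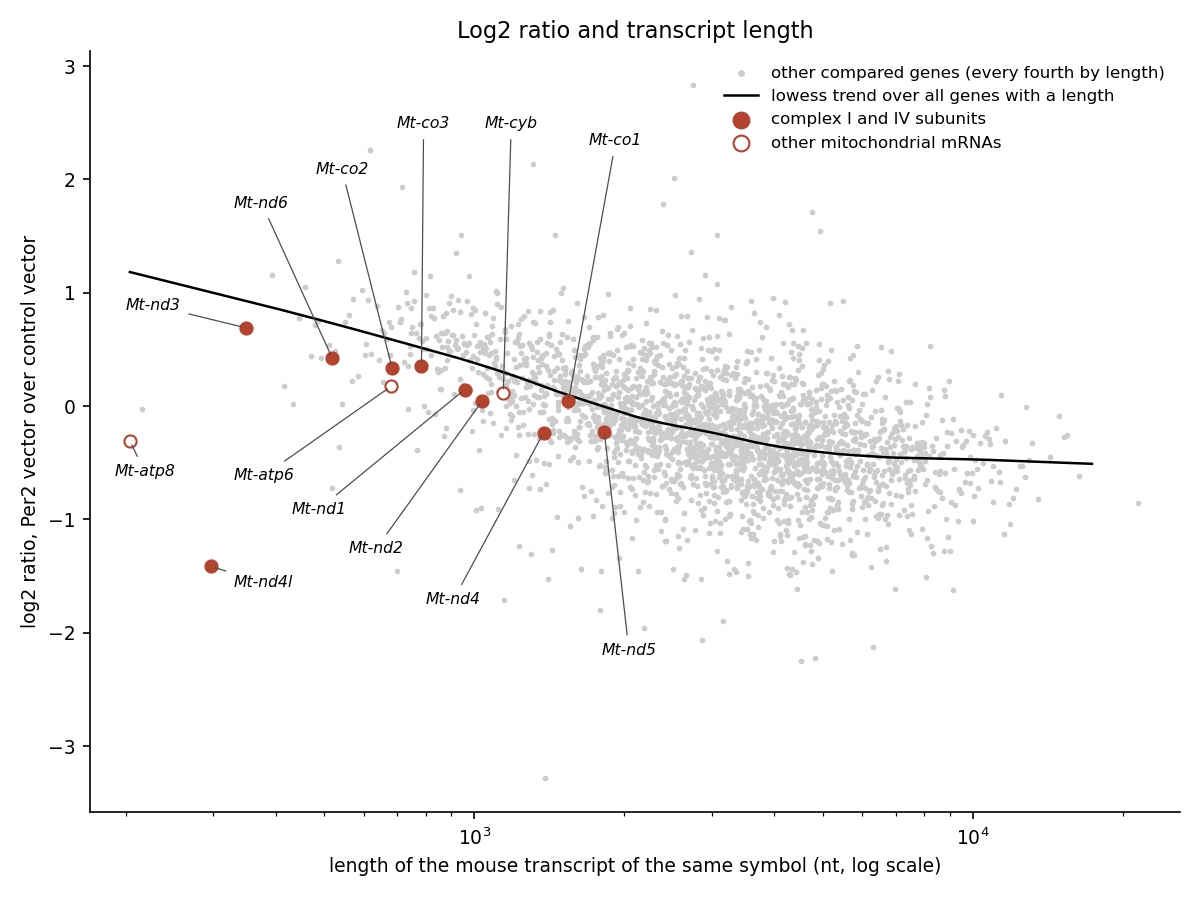
Log2 ratio against the length of the mouse transcript of the same symbol (log axis), with filled circles for the 10 members, open circles for the other 3 mitochondrial mRNAs, grey points for other compared genes and a line for the trend over all genes with a length. Most members follow the slope a little under the line, from Mt-nd3 at 0.69 to Mt-nd5 at -0.23, while Mt-nd4l at -1.42 and Mt-atp8 at -0.31 lie well under it.

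With that trend removed, which also recentres the ratios so that the median of all rows is -0.0056, the other 9 members drew together. They lay between -0.41 (Mt-nd4) and -0.056 (Mt-co1), a range of 0.35 where it had been 0.92. All 10 members were then below 0, with a median of -0.25. Mt-nd3, the highest by the plain ratio, was at -0.24, beside Mt-co2 at -0.25, Mt-nd1 at -0.26 and Mt-nd5 at -0.22. Mt-nd6 was at -0.31, so its ratio no longer lay above that of Mt-nd5. Mt-nd4l was at -2.42 and remained the 1 member past 2-fold, where 2.41% of rows with a length were lower and 1.35% higher by the 2-fold rule. Mt-atp8 was at -1.49. Only 10 rows have lengths of 400 nt or less, among them Mt-nd4l, Mt-nd3 and Mt-atp8, and the trend there is drawn mostly from longer rows. It reaches 1.18 at 204 nt, although all 3 rows of 300 nt or less were below 0, so the adjusted values of these short genes are the least certain. Whether length or a property of the libraries that goes with it accounts for the spread among the members was not tested.

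The nuclear-encoded partners in the same complexes had higher values under the Per2 label nearly throughout. Of 34 measured complex I subunits 32 had a log2 ratio above 0, with a median of 0.64, and 0 were past 2-fold. Ndufa3, an accessory subunit of the membrane arm, had 72.5 FPKM under the Per2 label and 37.6 FPKM under the control label. Ndufa7, another accessory subunit, had 280 FPKM under the Per2 label and 153 FPKM under the control label. Ndufs8, which carries iron-sulfur clusters, had 176 FPKM under the Per2 label and 97.3 FPKM under the control label. Ndufa13, the most abundant of them, had 376 FPKM under the Per2 label and 224 FPKM under the control label. Among those below 0 was Ndufs1, the large iron-sulfur subunit, with 19.5 FPKM under the Per2 label and 35.4 FPKM under the control label, which is named after its value was seen. All 15 measured complex IV subunits were above 0, with a median of 0.74. Cox6a1, the most abundant, had 1069 FPKM under the Per2 label and 630 FPKM under the control label. Ndufa4, first assigned to complex I and now counted in complex IV, had 431 FPKM under the Per2 label and 244 FPKM under the control label. Cox4i2, a form of the COX4 subunit, had 13.2 FPKM under the Per2 label and 6.83 FPKM under the control label. Cox6a2, the form typical of heart and skeletal muscle, was the 1 past 2-fold, at a low level of 6.0 FPKM under the Per2 label and 0.942 FPKM under the control label.

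Summed mitochondrially encoded transcripts of each complex were therefore lower against the summed nuclear-encoded ones under the Per2 label. These are RNA values, and the make-up of the complexes was not measured. The 7 mitochondrial complex I genes summed to 1.87 times the nuclear ones under the Per2 label and to 2.74 times under the control label. For complex IV the ratio was 5.90 under the Per2 label and 8.41 under the control label. These ratios are taken within a library and do not change with its scaling. Length moved with them too. With the length trend removed the medians of the nuclear subunits were 0.19 for complex I and 0.17 for complex IV. The mitochondrial ones had -0.31 and -0.16, so the gap was narrower but kept its direction. Of the nuclear subunits, 26 of 34 and 12 of 15 were then above 0, beside 49.3% of all rows with a length. The longest mouse transcript was used as the length. While the nuclear medians fell, some subunits rose, such as Ndufb2 (0.71 to 1.08), named after its value was seen. The part of these lengths in the remaining gap was not tested.

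**Figure D5:**
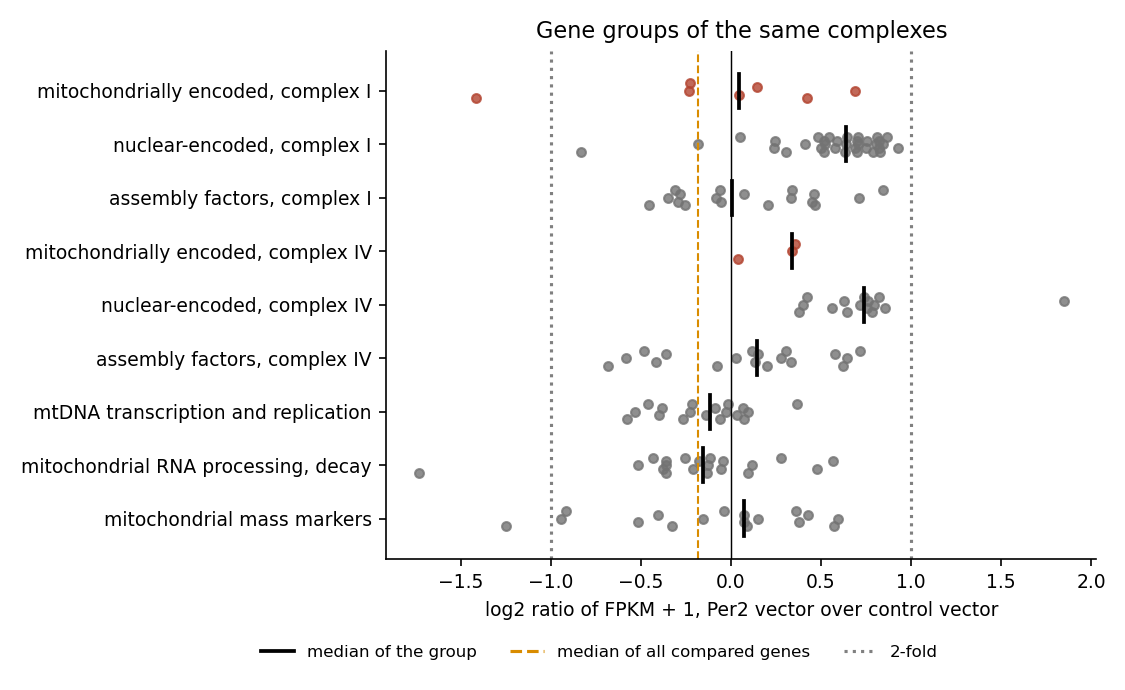
Log2 ratios (FPKM + 1, Per2-labelled over control-labelled library) of single genes, 1 row per gene group, with black bars for group medians, a dashed line for the median of all compared genes (-0.18) and dotted lines for 2-fold. The nuclear-encoded subunits centre on 0.64 and 0.74, to the right of the mitochondrially encoded subunits of the same complex at 0.046 and 0.34.

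By the plain log2 ratio, genes that build these complexes and handle mitochondrial RNA showed no such common difference. With the length trend removed, assembly factors had medians of 0.043 for complex I and 0.12 for complex IV. These lay nearer to the nuclear subunits (0.19 and 0.17). The mitochondrial DNA and RNA genes had -0.016 and 0.023. The part of length in the contrast was not tested, and plain ratios follow. Over all compared rows 35.9% were above 0, which is the share to hold beside the counts here and in the next paragraph. Of 18 complex I assembly factors 9 were above 0 and 9 below, with a median of 0.0068. Ndufaf8 (68.8 against 37.8 FPKM, Per2-labelled library first here and in the rest of the paragraph) and Ndufaf3 (19.1 against 11.3) had the highest log2 ratios. Ndufaf6 (14.8 against 10.4) followed. Of 18 complex IV assembly factors 12 were above 0 and 6 below, with a median of 0.14. Cox14, which helps to make the Mt-co1 protein, had 210 against 128 FPKM, and Cox11, which helps to place copper in that protein, had 3.10 against 5.59, while Coa6, also a copper-handling factor, had 17.0 against 10.5. Of 18 genes for transcription and replication of mitochondrial DNA 5 were above 0 and 13 below, with a median of -0.12, and 0 were past 2-fold. Mterf1, a mitochondrial transcription termination factor, had 3.75 against 6.08 FPKM, and Top1mt, the mitochondrial topoisomerase, had 3.76 against 5.56. Polg, the catalytic subunit of the mitochondrial DNA polymerase, had 5.57 against 8.52 FPKM, and Ssbp1, which binds single-stranded mitochondrial DNA, had 58.5 against 45.2. Tfam (21.1 against 21.3 FPKM), which packages mitochondrial DNA and starts its transcription, and Polrmt (2.43 against 2.35), the mitochondrial RNA polymerase, were nearly level, and both are named after their values were seen.

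Of 20 genes for processing and decay of mitochondrial RNA 5 were above 0 and 15 below, with a median of -0.15. Ptcd3, a protein of the mitochondrial ribosome's small subunit, was the 1 past 2-fold, with 7.30 FPKM under the Per2 label and 26.7 FPKM under the control label. Trmt10c, a subunit of mitochondrial RNase P, had 6.5 FPKM under the Per2 label and 9.73 FPKM under the control label. Rexo2, an exonuclease that degrades short RNAs, was the most abundant of the list with 194 FPKM under the Per2 label and 179 FPKM under the control label. The partners Slirp and Lrpprc, which together bind and stabilise mitochondrial mRNAs, lay on different sides of 0. Slirp had 15.5 FPKM under the Per2 label and 10.2 FPKM under the control label, and Lrpprc, named after its value was seen, had 8.40 and 11.1 FPKM in the same order. Of 7 measured regulators of mitochondrial biogenesis 1 was above 0 and 6 below, with a median of -0.073. Yy1 was lowest by ratio with 13.5 FPKM under the Per2 label and 21.9 FPKM under the control label. The log2 ratios of Gabpa, Sirt3 and the most abundant regulator, Esrra, were -0.38, 0.15 and -0.056 in that order. Of 17 genes used as markers of mitochondrial mass 9 were above 0 and 8 below, with a median of 0.072. Tomm70, a receptor for protein import, was the 1 past 2-fold, with 8.73 FPKM under the Per2 label and 22.1 FPKM under the control label, while Slc25a4, an ADP/ATP carrier, had 447 and 332 FPKM in the same order. Immt, which shapes the cristae, had 21.4 FPKM under the Per2 label and 42.2 FPKM under the control label. Hspa9, a chaperone of the matrix, had 27.2 FPKM under the Per2 label and 52.1 FPKM under the control label.

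Of the nuclear genes that averaged 500 FPKM or more, the 5 with a log2 ratio nearest to that of the summed members (0.16) were S100a8 (0.15), Hmox1 (0.13), Gapdh (0.13), Anxa2 (0.13) and Capg (0.19). With 2 libraries this likeness is a single difference between ratios, taken over 198 candidate genes, and each of the 5 lay within 0.028 of the members.

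Markers of cell types also differed between the libraries. Over all compared rows 5.93% were at least 2-fold lower in FPKM, which is the share to hold beside the counts that follow. Of 16 measured microglia markers 6 were at least 2-fold lower and 3 were above 0, and the 19 in the table summed to 3178 FPKM under the Per2 label and 3618 FPKM under the control label. The 3 that differed most were C1qb, a subunit of complement C1q, with 22.3 FPKM under the Per2 label and 116 FPKM under the control label, Gpr34, a receptor of microglia, with 1.73 and 11.5 FPKM in the same order, and C1qc, another C1q subunit, with 26.6 and 99.0 FPKM. The others past 2-fold, named after their values were seen, were C1qa (log2 ratio -1.83), Selplg (-1.36) and Csf1r (-1.21). Tyrobp had 1364 FPKM under the Per2 label and 1076 FPKM under the control label.

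Of 12 astrocyte markers 6 were at least 2-fold lower and 0 above 0, with sums of 583 FPKM under the Per2 label and 1068 FPKM under the control label. Atp1b2 (-2.40), Gfap (-1.61) and Aldoc (-1.52) had the lowest log2 ratios, and Glul, the most abundant, had -0.68. Of 7 measured oligodendrocyte lineage markers 3 were at least 2-fold lower, among them Olig1 (-1.19) and Sox10 (-1.12), and 1 was above 0. Cnp, the most abundant, had -0.041, and the list summed to 58.3 FPKM under the Per2 label and 74.8 FPKM under the control label. The 12 fibroblast and pericyte markers summed to 1393 FPKM under the Per2 label and 1584 FPKM under the control label. Of the 11 measured 3 were above 0, and their median of -0.19 was close to that of all compared rows (-0.18). Col6a1 (-1.13) was past 2-fold, and Dcn (-0.83), Col1a2 (-0.71) and the most abundant, Fn1 (-0.17), were not. Neuron markers summed to 27.8 FPKM under the Per2 label and 41.3 FPKM under the control label, and 1 of the 4 measured was above 0. Syt1 was at -0.79, Stmn2 at -0.74 and Gad1 at -0.45, and Rbfox3 and Slc17a7 were listed at 0 in both libraries. Endothelial markers summed to 63.5 FPKM under the Per2 label and 60.2 FPKM under the control label, most of it from Esam (59.2 and 54.2 FPKM in the same order). Tie1 was at -0.41, Flt1 at -0.24 and Esam at 0.13, and Cldn5 was listed at 0. Neutrophil and monocyte markers summed to 758 FPKM under the Per2 label and 683 FPKM under the control label, nearly all of it from S100a8 (753 and 677 FPKM in the same order). S100a9 was at -0.73, Ly6c at 0.62 and Csf3r at -0.38, each at 1.79 FPKM or less in both libraries, and Mpo was listed at 0. The part of cell composition in the values of the members was not tested.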

How the data were processed

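Primary microglia gave 2 libraries of oligo(dT)-selected RNA, 1 per label. For each gene the authors deposited an FPKM value per library, both in 1 table. HISAT2, StringTie, DESeq2, edgeR and the rat build Rnor_6.0 are named without versions or order in the submitters' processing notes, and their settings were not at hand. Per the labels' protocols, fragments of 300 to 400 bp were selected on beads. Whether that affects the values of genes as short as Mt-nd4l and Mt-nd3 was not tested.

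Columns were assigned by the library names in the labels. From the deposited FPKM, log2 ratios with a pseudocount of 1, shares, sums and medians were computed with pandas 2.3.3 and numpy 2.4.6 for rows averaging 1 FPKM or more, and the length trend with statsmodels 0.14.6 (lowess, span 0.3, GENCODE M21 mouse lengths for 82.1% of rows compared). That correction, the joined reading frames and the sum without Mt-nd4l were added after the values were seen. The functions were tested on simulated data. The members and lists were chosen with earlier results of these data known. Named genes were all members, Per2, the other mitochondrially encoded genes, and from each list the 3 with the largest absolute log2 ratio and the most abundant; genes outside this rule are marked as named after their values were seen, or are markers listed at 0, and a gene that the rule names is not reported here. Where rows shared a symbol, the row with the higher mean was used. Lists of mitochondrial rRNAs and of nuclear-retained RNAs matched no row. Alternatives were pseudocounts of 0.1 and 5, no filter, a filter at 5 FPKM, TPM, scaling to nuclear genes and centring on the median.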

Additional observations from a re-analysis of the deposited data

How the results depend on the processing

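No paired analysis was possible because each group held 1 library, and no library could be left out for the same reason. Mt-nd4l was more than 2-fold lower under each pseudocount, scaling, filter and length correction run, and 0 members were past 2-fold higher under any. The unit of Mt-nd4l joined with Mt-nd4, most of whose weight is Mt-nd4, was not past 2-fold. Of the 201 alternative values, 149 kept direction and side of the 2-fold line (counts of genes: within 1.5 times), 39 changed sign, 11 counts moved by over 1.5 times, 1 value passed the line and 1 no longer did. TPM rescaling turned Mt-nd1 (-0.060), Mt-nd2 (-0.16), Mt-co1 (-0.16), Mt-cyb (-0.089), Mt-atp6 (-0.032), the medians of the members (-0.11), of the other mitochondrial mRNAs (-0.089), of complex I (-0.18) and complex IV (-0.048) assembly factors and of mass markers (-0.13), and gave 1400 lower genes where FPKM gave 733. Scaling to nuclear genes turned the same values (-0.066, -0.16, -0.17, -0.096, -0.039, -0.12, -0.096, -0.19, -0.055 and -0.14 in that order) and gave 1475. Centring on the median turned the medians of mitochondrial DNA (0.068), RNA (0.029) and biogenesis (0.11) genes and gave 521 higher genes, where FPKM gave 271, and 442 lower. Removing the length trend turned Mt-nd1 (-0.26), Mt-nd2 (-0.31), Mt-nd3 (-0.24), Mt-nd6 (-0.31), Mt-co1 (-0.056), Mt-co2 (-0.25), Mt-co3 (-0.16), Mt-cyb (-0.18), Mt-atp6 (-0.42) and the medians of the members (-0.25), other mitochondrial mRNAs (-0.42), RNA (0.023), biogenesis (0.081) and mass (-0.051) genes, put Mt-atp8 past 2-fold (-1.49), and gave 137 higher and 245 lower genes over fewer rows. A pseudocount of 0.1 gave 413 higher and 1304 lower genes, one of 5 gave 120 and 164, and a mean of at least 5 FPKM left 366 lower. Joining overlapping frames gave -0.34 for the unit of Mt-nd4l with Mt-nd4 and 0.11 for that of Mt-atp8 with Mt-atp6. The log2 ratio of shares of -0.047 was 0.041 without the most abundant member. TPM and scaling to nuclear genes each multiply a library by 1 factor, and the pseudocount is then added. Centring subtracts the median from log2 ratios that already hold the pseudocount. Joining averages a frame with its partner. The cause of the other changes was not tested. The unknown depth and the single library per label limit every value.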

Other observations

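Few compared genes are as short as Mt-nd4l. Of the 10 compared rows with a mouse length of 400 nt or less, 4 had a log2 ratio below 0, and the median was 0.74. The 3 rows of 300 nt or less were all below 0. They were Mt-nd4l, Mt-atp8 and Snurf, which had 16.0 FPKM under the Per2 label and 16.3 FPKM under the control label. Among those between, the ribosomal protein genes Rpl36 (1850 FPKM under the Per2 label and 904 FPKM under the control label) and Rps21 (785 and 384 FPKM in the same order) were at least 2-fold higher, as were Rps29 and Hist1h2ai, and the histone gene Hist1h2af (0.734 and 2.08 FPKM in the same order) was below 0. These genes were picked by length after the values had been seen.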
